A study of Rattus norvegicus with 4 samples.

Results

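The genes described here make, carry, read and break down retinoic acid, and they were measured in rat astrocytes that had or had not been cultured with mouse neurons. The 9 members are Cyp26b1, Aldh1a1, Aldh1a2, Aldh1a3, Crabp1, Crabp2, Rara, Rarb and Rbp4, out of 35731 genes on the arrays. Probes were assigned to a member by the gene name in the scanner files or by a RefSeq transcript of it, which gave 10 of the 41012 probes. Cyp26b1 was chosen by its M values on these same arrays, on which the level after co-culture was below that of AA-CJ, so its values in that comparison, and in the comparison of CC with AA-CJ that uses the same arrays, are given as a description without a test.

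Cortical astrocytes of Wistar rat pups (postnatal day 1) were cultured alone, or as a layer onto which hippocampal neurons of mouse embryos (embryonic day 18) were plated. CC is RNA of the whole co-culture, CC-CJ is RNA of the co-culture after cold jet, a stream of ice-cold buffer that washes the neurons off the astrocytes, and AA-CJ is RNA of astrocytes that never had neurons and also received cold jet. Cy3 always marked CC-CJ, on each of the 4 arrays, and the Cy5 channel held AA-CJ on 2 of them and CC on the other two. The dyes were not exchanged, and a dye effect and a difference between the RNAs on 1 array cannot be told apart. Replicates came from different pools of animals. RNA of mouse neurons was read by rat probes, and CC held this RNA beside that of the astrocytes. A lower level per cell and fewer cells with the mRNA cannot be told apart in such samples.

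Retinoic acid is made from vitamin A. Retinol dehydrogenases oxidize retinol to retinaldehyde, retinaldehyde dehydrogenases (the Aldh1a enzymes) oxidize this to retinoic acid, and the acid then binds nuclear receptors (Rara, Rarb and their RXR partners) that switch on target genes. Cells end the signal with cytochromes of the Cyp26 family, which oxidize retinoic acid, so that the balance of Aldh1a and Cyp26 enzymes sets how much of it a tissue holds. Astrocytes are a known site of retinoid metabolism in the brain, and both Rarb and Cyp26a1 are textbook targets of the receptors.

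The receptors bind direct repeats of a short half-site, and a script searched the promoter windows of RefSeq (build GRCr8, 250 bases before to 50 bases after the gene start), in which all 9 members have an entry, for AGGTCA, for AGTTCA and for the spaced repeat of GTTCA, 6 bases of any kind and GTTCA, on both strands. The second copy within the spaced repeat can also be counted as AGTTCA when an A precedes it. The repeat was present in 0.418% of the 33469 promoters, AGGTCA in 16.2% and AGTTCA in 14.5%. Among the members only the window of Rarb held any of these letters, and 8 windows, that of Cyp26b1 included, held none. The stretches of Rarb (chr15:11336410-11336439, plus strand) and Cyp26a1 (chr1:244883723-244883752, plus strand) are shown because they carry the repeat, in capitals, and the 250 bases before the start of Cyp26b1 (chr4:118616177-118616426, minus strand) are shown because the largest difference among the members was seen in this gene.
Rarb: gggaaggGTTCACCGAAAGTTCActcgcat
Cyp26a1: ttaaagaTGAACTTTGGGTGAACtaatttg
Cyp26b1: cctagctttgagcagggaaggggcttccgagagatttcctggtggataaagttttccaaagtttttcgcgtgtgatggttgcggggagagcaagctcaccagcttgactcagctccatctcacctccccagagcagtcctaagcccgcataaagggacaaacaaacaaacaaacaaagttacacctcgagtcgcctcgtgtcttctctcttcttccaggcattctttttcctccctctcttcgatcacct
In Rarb the repeat lay at bases 26 to 41 after the start, and in Cyp26a1 it lay on the opposite strand at bases -92 to -77. A match of letters is a description of the window, and the arrays did not measure binding.

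Cyp26b1, the enzyme that breaks retinoic acid down, was the member with the largest difference, and it was lower in astrocytes taken from co-culture than in astrocytes cultured alone. Its probe lies on chromosome 4 from 118735314 to 118735373 of the rn4 build, on the minus strand, as the scanner files give it, and each channel of the 4 arrays read it well above background. The M value, log2 of CC-CJ over the RNA on the same array, was -1.14 and -0.93 on the 2 arrays with AA-CJ. It was -0.16 and -0.54 on the 2 arrays with CC. CC-CJ was thus the lower of both RNAs on every array, and both M values against AA-CJ were further from 0 than both against CC.

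The mean M of Cyp26b1 against AA-CJ was -1.03 (standard error 0.115), which is a ratio of 0.489. Of the 21371 genes tested, 12 had a lower value in this comparison. In this comparison 3.02% of all genes passed at 0.05 (limma, p-values adjusted after Benjamini and Hochberg), and 1.13% passed as lower. Against CC the mean M was -0.35 (standard error 0.115, adjusted p = 0.206 from limma), so this difference did not pass, while 2.35% of all genes did. The 95% interval of that difference, before adjustment, ran from -0.62 to -0.076. CC-CJ entered the choice of the gene. The comparison with CC is free of that choice only if the CC arrays carried other CC-CJ samples, which was not settled. Centring the arrays on their medians, with no loess, gave -2.50 against AA-CJ and -1.63 against CC, the latter with an adjusted p of 9.38e-05 from limma, while the median of all genes moved to -0.48 and -0.59. CC minus AA-CJ, where both RNAs carried Cy5, was -0.68 (standard error 0.162), a ratio of 0.623, and 55 genes had a lower value.

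The log2 levels of Cyp26b1 per channel, after scaling between arrays, were 12.48 and 12.52 for CC-CJ on the AA-CJ arrays and 12.46 and 12.48 for CC-CJ on the CC arrays. They were 12.62 and 13.02 in CC, and 13.62 and 13.44 in AA-CJ. The levels were ordered from CC-CJ over CC to AA-CJ, which is a description, since values that chose the gene are among them. CC-CJ was always in Cy3 and the other groups in Cy5, so a dye effect cannot be told apart from its lower level. The 4 levels of CC-CJ had an SD of 0.0237. It was not settled here whether the AA-CJ arrays and the CC arrays carried the same CC-CJ samples. The 4 levels may thus come from fewer samples. Of the neighbours in this order, CC-CJ and CC differed by an amount that did not pass the test, and the difference of CC and AA-CJ is a description without a test. With a single CC array left in the fit, M against CC was -0.16 (first array) or -0.54 (second array), so that 1 array moved this value by more than 1.5 times.

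**Figure D1:**
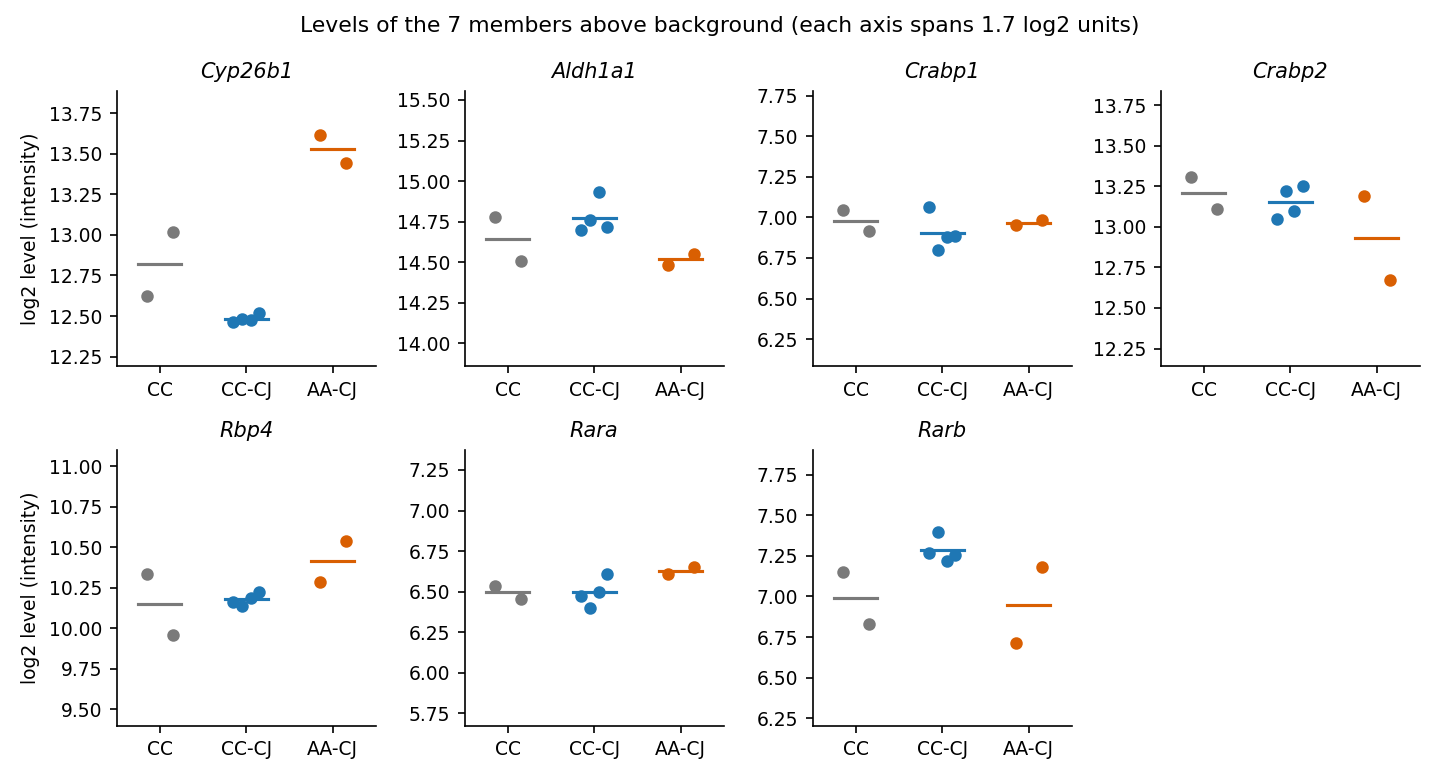
Levels of the 7 members with a probe above background, one panel per gene, on a log2 intensity axis that spans 1.7 units in every panel. Points are channels of single arrays (2 of CC, 4 of CC-CJ, 2 of AA-CJ) and lines are group means; Cyp26b1 is at 12.46 to 12.52 in CC-CJ and at 13.44 and 13.62 in AA-CJ, and levels may be compared within a panel only.

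Among the members that make retinoic acid only Aldh1a1 could be tested, and with loess normalization it did not pass. Aldh1a1, the retinaldehyde dehydrogenase with a signal here, was bright in all 3 RNAs (chromosome 1, 223772858 to 223772917, plus strand). Its M values were 0.45 and 0.16 against AA-CJ and -0.085 and 0.25 against CC. The log2 levels were 14.70 to 14.93 in CC-CJ, 14.48 and 14.55 in AA-CJ, and 14.78 and 14.51 in CC. CC-CJ lay above AA-CJ on both arrays that carried these RNAs, and its levels overlapped those of CC. The mean difference was 0.31 in CC-CJ versus AA-CJ (standard error 0.116, adjusted p = 0.184 from limma, unadjusted p = 0.0344), and it did not pass. In CC-CJ versus CC it was 0.082 (adjusted p = 0.761), and in CC versus AA-CJ 0.22 (adjusted p = 0.522). Centring on the median turned all 3 below 0 (-1.36, -1.35 and -0.012).

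Aldh1a2, the main enzyme of retinoic acid synthesis in the meninges and the embryo, was not well above background in any channel of the 4 arrays (chromosome 8, 75771061 to 75771120). The same was true of Aldh1a3 (probe from 120847772 to 120853625 on chromosome 1). Their log2 levels reached 6.16 and 6.29, and no difference is given for them. Their signal was not detectable with these probes, which does not show that the mRNAs were absent.

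The proteins that bind and carry retinoids showed no difference that passed. Crabp2, which hands retinoic acid to the receptors in the nucleus, had M values of -0.089 and 0.58 against AA-CJ and of -0.26 and 0.11 against CC. The sign differed between replicates in both comparisons. Its mean was 0.24 against AA-CJ (standard error 0.167, adjusted p = 0.435 from limma) and -0.077 against CC (adjusted p = 0.851), and its levels were 12.67 and 13.19 in AA-CJ and 13.05 to 13.25 in CC-CJ, so that 1 of the 2 AA-CJ levels lay within the range of CC-CJ. Centring on the median put the first of these at -1.22.

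Crabp1, the other cellular retinoic acid binding protein, was dim, with levels of 6.80 to 7.07 over all channels, but well above background on every array. Its M values were -0.078 and -0.098 against AA-CJ and 0.021 and -0.12 against CC, and the adjusted p from limma was 0.578 and 0.808. Rbp4 (chromosome 1, 242443888 to 242443947), the carrier of retinol outside cells, had M values of -0.10 and -0.32 against AA-CJ and of -0.17 and 0.18 against CC. Its mean difference was -0.21 against AA-CJ (standard error 0.112, adjusted p = 0.322), 0.0049 against CC (adjusted p = 0.988) and -0.21 in CC versus AA-CJ (adjusted p = 0.527). The levels were 10.29 and 10.54 in AA-CJ, 10.14 to 10.22 in CC-CJ, and 10.33 and 9.96 in CC. Centring on the median gave -1.35 against AA-CJ and -1.11 against CC (adjusted p = 6.05e-05 and 0.000114 from limma), which is -0.87 and -0.52 relative to the median of all genes. Under this centring Aldh1a1, Crabp1, Crabp2 and Rbp4 all passed as lower in both comparisons, Crabp1 with differences above the median of all genes by 0.17 and 0.25.

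Of the receptors, Rarb had a positive M on each array with the tested probe but did not pass the test. Its M values were 0.51 and 0.073 against AA-CJ and 0.12 and 0.56 against CC, with a mean of 0.29 (standard error 0.143, adjusted p = 0.289 from limma) and of 0.34 (adjusted p = 0.296). The levels were 7.22 to 7.40 in CC-CJ, 6.71 and 7.18 in AA-CJ, and 7.15 and 6.83 in CC. These values come from the probe at 324128 to 324187 of 15_random, a set of unplaced sequence of chromosome 15. A second Rarb probe, from 319377 to 319436, was well above background in CC on 1 array only and entered no test. Its M values were 0.086 and 0.068 against AA-CJ, but -0.088 and -0.13 against CC. Centring on the median turned both mean differences of the first probe below 0 (-0.022 and -0.077).

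Rara was at the edge of detection, above background in AA-CJ and CC on all their arrays and in CC-CJ on 3 of 4. Its M values lay between -0.11 and -0.040 on the 4 arrays, and the mean difference was -0.075 against AA-CJ (adjusted p = 0.627 from limma) and -0.059 against CC (adjusted p = 0.748). A log ratio of so dim a probe is pulled towards 0 by the offset added to both channels, so that such values say little of the size of a change. The same holds for Crabp1.

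**Figure D2:**
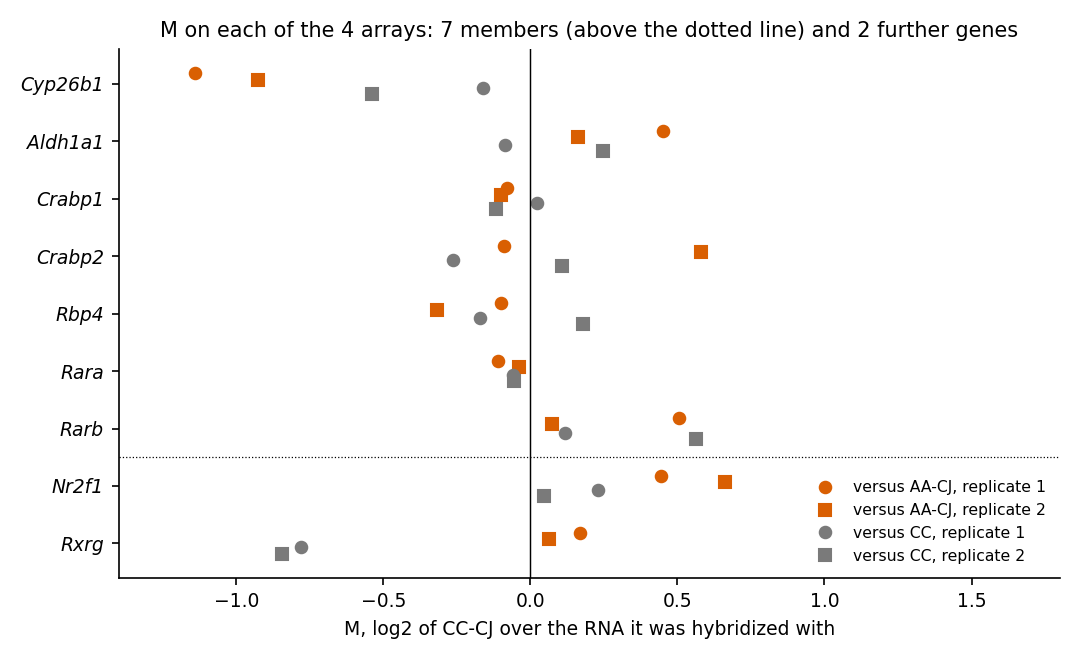
M (log2 of CC-CJ over the RNA on the same array, x axis) on each of the 4 arrays, for the 7 members tested and, below the dotted line, for the 2 further retinoid genes that passed in some comparison. Colours give the Cy5 RNA and shapes the replicate; Cyp26b1 has both AA-CJ points at or beyond -0.93, while the other 6 members lie between -0.32 and 0.58. The points of Nr2f1 against AA-CJ, above 0 here, have a mean below 0 when arrays are centred on the median in place of loess.

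Cyp26b1 was then set against the other 6 tested members array by array, as a description. On the AA-CJ arrays its M minus their median was -1.06 and -0.94, and 0 of the 6 had a lower value on either array. On the CC arrays the differences were -0.089 and -0.68, and 2 and 0 of the 6 were lower. The gap between Cyp26b1 and the other members was therefore small on the first CC array only. Of the other members, 0 of 6 passed in CC-CJ versus AA-CJ, 0 of 6 in CC-CJ versus CC and 0 of 6 in CC versus AA-CJ (limma, adjusted p of 0.05). In the last comparison 2.65% of all genes passed, and 0.0795% passed as lower. At an unadjusted p of 0.05 there were 1, 0 and 0, where 22.6%, 16.9% and 17.8% of all genes passed, and nothing is read from counts over 6 genes. The median difference of the 6 was 0.085, -0.022 and -0.028, beside -0.015, -0.024 and 0.0016 over all genes.

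**Figure D3:**
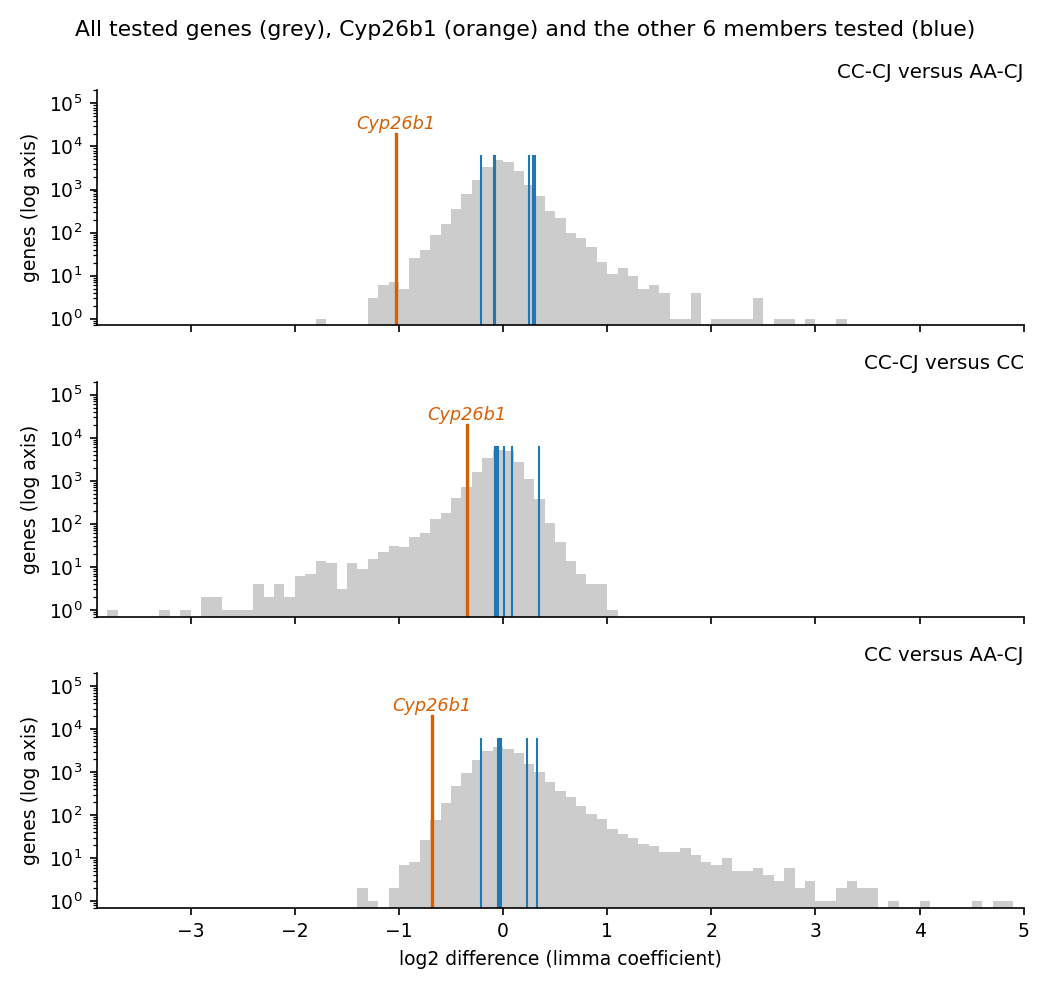
Log2 differences of all 21371 tested genes (grey bars, bins of 0.1, number of genes on a log axis) in the 3 comparisons, with lines at Cyp26b1 (orange) and at the other 6 members tested (blue). Cyp26b1 stands at -1.03 in CC-CJ versus AA-CJ with 12 genes below it, at -0.35 in CC-CJ versus CC and at -0.68 in CC versus AA-CJ, and the blue lines lie between -0.21 and 0.34.

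Beyond the members, 63 further genes were listed: 29 enzymes and carriers of retinoids, 12 receptors and their cofactors, and 22 genes known from other systems to rise with retinoic acid. A probe was present for 52 of them, and 35 were tested. In CC-CJ versus AA-CJ, 1 of 35 was higher and 0 were lower, with 1.89% of all genes higher. In CC-CJ versus CC, 0 were higher and 1 was lower, with 0.0983% of all genes higher and 2.25% lower, and in CC versus AA-CJ 1 was higher and 0 lower, with 2.57% of all genes higher. The gene called in both of these comparisons with CC was Rxrg. By list, the medians in CC-CJ versus AA-CJ were -0.098 for enzymes and carriers, 0.038 for receptors and cofactors and 0.073 for the genes that rise with retinoic acid.

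Nr2f1, a nuclear receptor gene that rises with retinoic acid in other cells, was higher after co-culture than in AA-CJ. Its M values, means of 2 probes on chromosome 2 (5765431 to 5765490 and 5774480 to 5774539), were 0.44 and 0.66 against AA-CJ and 0.23 and 0.046 against CC. The difference against AA-CJ was 0.55 (standard error 0.0953, adjusted p = 0.0384 from limma), and in CC versus AA-CJ it was 0.41 (adjusted p = 0.188). Without either AA-CJ array the call was lost (0.66 and 0.44, adjusted p = 0.0952 and 0.137), and centring on the median gave -0.50. It was also lost with an offset of 16 (0.62, adjusted p = 0.0670), Agilent's log ratio (0.70, adjusted p = 0.154) and a replicate block (0.55, adjusted p = 0.0998), at differences no smaller than that of the fit. Of the 10 tested genes on its list, 1 was higher and 0 lower in CC-CJ versus AA-CJ, beside 1.89% and 1.13% of all genes. A positive difference was seen in 7 of the 10, and in 9911 of all 21371 genes.

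Rxrg, a partner of the retinoic acid receptors, was read well above background in the whole co-culture only. Its probe (chromosome 13, 83298541 to 83298600) was well above background on both CC arrays and on none for CC-CJ or AA-CJ. Its log2 levels were 7.33 and 7.30 in CC, 6.20 to 6.55 in CC-CJ, and in AA-CJ they were 6.18 and 6.14. The fitted differences were -0.81 in CC-CJ versus CC and 0.93 in CC versus AA-CJ (adjusted p = 0.00441 and 0.0108 from limma). Since the probe passed the filter through CC alone, the group in which it is high, these calls are not read as a result of the list, and the differences are against signals not above background and have no exact size. A second Rxrg probe was not well above background in any group. With all probes kept, which averages the 2 probes, the adjusted p was 0.0468 against CC-CJ and 0.0743 against AA-CJ.

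Per list and comparison, the gene with the largest difference is given whether or not it passed, among those with a probe that every channel read well above background. Dhrs4, a short-chain dehydrogenase that acts on retinaldehyde, had M values of -0.65 and -0.56 against AA-CJ and -0.075 and -0.62 against CC. Its difference against AA-CJ was -0.60 (standard error 0.132, adjusted p = 0.0620 from limma). It passed in 7 of 16 alternative settings, which are not independent of each other. Among them were the fit on only its own arrays and the fits without either CC array, all at the same -0.60. Centring on the median, which called 13235 of all genes, and a crossed replicate block chosen after seeing the data were also among them. Bco1, which cleaves carotene to retinaldehyde, had -0.50 in CC versus AA-CJ (adjusted p = 0.349), and -0.87 to -0.13 with 1 array left out. Ep300, a coactivator, had 0.19 against AA-CJ and 0.15 against CC (adjusted p = 0.324 and 0.482), the first of which ran from 0.028 to 0.35 with 1 array left out, and Ncoa1, another coactivator, had 0.25 in CC versus AA-CJ (adjusted p = 0.318). Ncoa2 and Rxra, which lie outside this rule and were chosen after their values were seen, had larger differences that did not pass. Ncoa2 had -0.26 against AA-CJ, 0.25 against CC and -0.51 in CC versus AA-CJ (adjusted p = 0.352, 0.452 and 0.280 from limma). Rxra had 0.33 against CC and -0.42 in CC versus AA-CJ (adjusted p = 0.303 and 0.329). The 2 CC arrays differed, with M against CC of -0.080 and 0.57 for Ncoa2 and of 0.035 and 0.62 for Rxra. Rdh5, a retinol dehydrogenase, also lies outside this rule and was chosen after its values were seen. It had 0.43 against AA-CJ, -0.049 against CC and 0.48 in CC versus AA-CJ (adjusted p = 0.0539, 0.818 and 0.116 from limma). Neither of its probes was well above background in AA-CJ, so the differences against AA-CJ have no exact size and are not read as a result. Rarres2 had 0.35 in CC-CJ versus CC (adjusted p = 0.179), with M of 0.23 and 0.48 on the 2 arrays, from a pair of probes that the files place on opposite strands. The probe named Ttr had 0.43 in CC-CJ versus CC (adjusted p = 0.117), but the files place it on the mitochondrial genome, so it is not read here as a measure of Ttr, the carrier of retinol in blood and cerebrospinal fluid, whose other probe was not well above background.

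Cyp26a1, the sister enzyme of Cyp26b1, is given beside it although no part of the rule names it. Its M values were -0.37 and -0.098 against AA-CJ and 0.024 and 0.041 against CC, and the difference against AA-CJ was -0.23 (adjusted p = 0.209 from limma). The signal was dim, with levels of 6.43 to 6.83 in the AA-CJ arrays, and its probe is placed on the minus strand of chromosome 1 in rn4 while RefSeq has the gene on the plus strand in GRCr8. Cyp26c1, the remaining member of this enzyme family, had no probe.

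**Figure D4:**
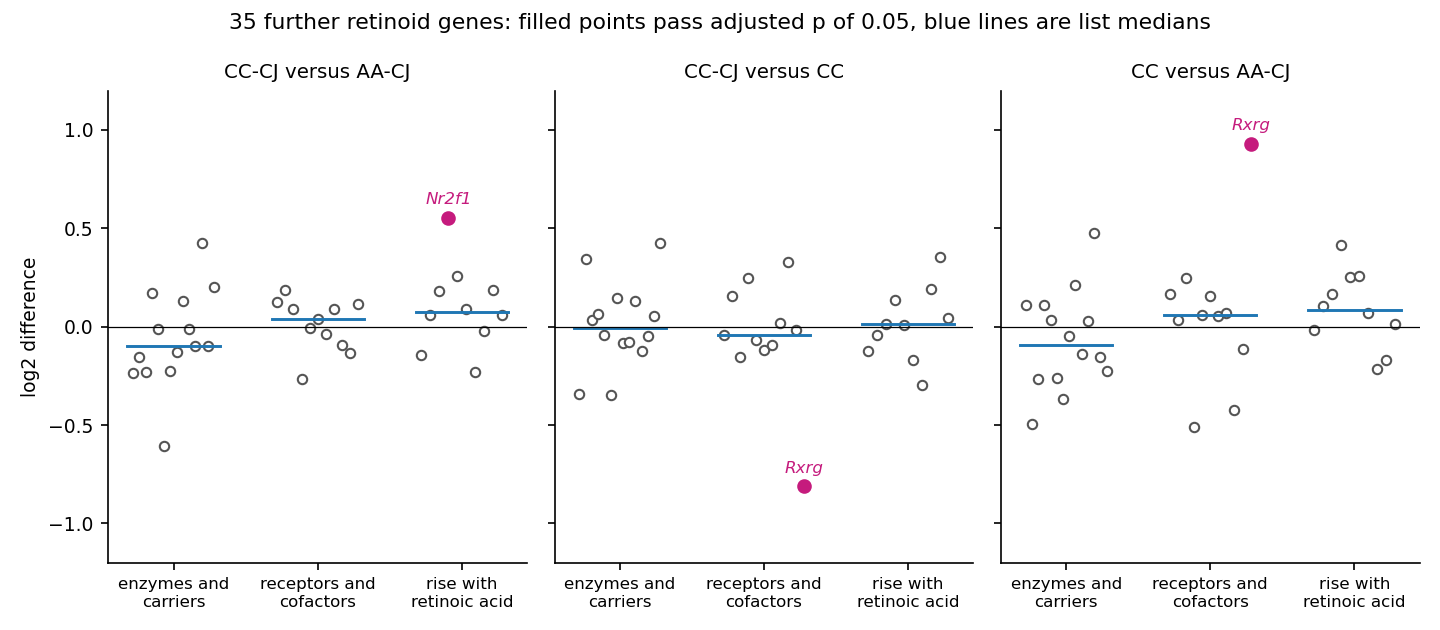
Log2 differences of the 35 further retinoid genes tested (y axis) by list and comparison; filled and named points pass an adjusted p of 0.05 in limma and blue lines are list medians. In CC-CJ versus AA-CJ the point of Nr2f1 (0.55) passed, which falls below 0 when arrays are centred on the median, and Rxrg passed in the comparisons with CC at fitted values of -0.81 and 0.93, which were read against RNAs in which its probe was not well above background.

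The genes most like Cyp26b1 were sought among 7039 named genes, over the probes that every channel read well above background, by the root mean squared difference of M over the 4 arrays. The nearest were C10h16orf90 (0.183), Msrb2 (0.217), Pdrg1 (0.230), Tm7sf2 (0.230) and Snrpd1 (0.235). Their M values were between -1.23 and -0.65 on the AA-CJ arrays and between -0.62 and 0.14 on the CC arrays. Tm7sf2, a sterol reductase of cholesterol synthesis, had -1.23 and -1.03 against AA-CJ and -0.58 and -0.40 against CC. Msrb2, a methionine sulfoxide reductase of mitochondria, had -0.82 and -0.71 against AA-CJ and -0.065 and -0.37 against CC. C10h16orf90 is ranked by 1 of its 2 probes, and its fitted difference over both was -0.46 against AA-CJ. The points share their arrays and the Cy3 channel, and likeness over 4 values is a description.

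The cell types in the 3 RNAs were followed by marker lists. Of all genes, 1.89% passed as higher and 1.13% as lower in CC-CJ versus AA-CJ (limma, adjusted p of 0.05). In CC-CJ versus CC, 0.0983% passed as higher and 2.25% as lower, and in CC versus AA-CJ 2.57% and 0.0795%. Of 10 astrocyte markers, among them Gfap, S100b and Aqp4, all were tested and 0 passed in any comparison, with a summed log2 level of 15.20 to 15.26 in CC, 15.23 to 15.31 in CC-CJ and 15.13 to 15.24 in AA-CJ. Of 11 neuronal markers tested, 7 were lower against CC and 4 higher against AA-CJ in CC-CJ, and Dcx and Elavl4 were not well above background on any AA-CJ array. Their summed level was 14.23 to 14.27 in CC, 13.00 to 13.08 in CC-CJ and 13.09 to 13.17 in AA-CJ, where Stmn2, with a mean level of 12.93, held most of it. The mean level of Stmn2 was 12.58 in CC and 12.62 in CC-CJ. It did not fall with cold jet (-0.00094 in CC-CJ versus CC), unlike the 7 markers called lower, so the summed levels are not read as a measure of neuronal RNA. Of 7 microglial markers tested, 5 were lower against CC and 3 higher against AA-CJ, and the summed level was 11.51 to 11.53 in CC, 10.43 to 10.75 in CC-CJ and 9.91 to 10.08 in AA-CJ, with C1qa and Aif1 not above background in AA-CJ. Of the endothelial, choroid plexus and ependymal, and meningeal markers tested, 1 of 3, 1 of 6 and 1 of 7 were higher against AA-CJ, namely Kdr (2.62), Foxj1 (1.30) and Ptgds (1.05), and 0 were lower. The medians of these lists were 0.25, 0.11 and 0.028, and their lowest differences were -0.033 (Vwf), -0.34 (Aqp1) and -0.31 (Col1a2). Against CC, 2 of 9 markers of the oligodendrocyte lineage (Sox10, with M of -0.68 and -1.56 on the 2 arrays, and Mag) and 2 of 7 meningeal ones (Dcn at -0.77 and Col1a2 at -0.59) were lower, and 1 of 4 markers of pericytes and smooth muscle (Tagln at 0.60) was higher in CC-CJ. In CC versus AA-CJ, 6 of 11 neuronal and 5 of 7 microglial markers were higher, as were Kdr (2.67), Foxj1 (1.15), Dcn (0.66) and Mag. Snap25, Aif1 and Mag, which are among the genes counted as lower against CC and as higher in CC versus AA-CJ, were well above background on no CC-CJ channel and passed the filter through CC alone, so their calls are not read as results and their differences have no exact size. Dcx, Elavl4 and C1qa were well above background on no AA-CJ channel and passed the filter through the co-culture RNAs, in which they are high. Their calls as higher than AA-CJ, in CC-CJ and in CC, are likewise not read as results and have no exact size. The differences of Cyp26b1, Nr2f1 and Rxrg lie in comparisons in which markers on the lists above differed too, and the part of the markers' cells in these differences was not tested.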

How the data were processed

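RNA of CC, CC-CJ and AA-CJ was hybridized in 2 colours to 4 Agilent arrays of the rat genome, which share 1 slide, with 2 arrays per comparison. Per the file headers, the authors deposited Feature Extraction 9.5.1.1 output with spot intensities (mean signal and local background on a linear scale), marks for background and outliers in other columns, and Agilent's ratio as log10 of Cy5 over Cy3. The authors also deposited a table of log2 values, made with the OLIN and OSLIN normalization that the methods name. Set against the scanner values it is log2 of Cy5 over Cy3, the opposite direction to M, and its sign was turned for use here (correlation of 0.937 to 0.981 with M after that, across probes with a mean log2 level above 9; column medians of 0.0085, -0.025, 0.0043 and -0.014).

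The limma package (3.58.1, R 4.3.3) corrected the mean signals by normexp (offset 50), and M was normalized by loess (span 0.3) within each array. Control spots and 121 to 179 outlier spots per array were left out. The filter kept the 24881 of 41012 probes that all arrays of 1 RNA group or more read well above background. Between 50.3% and 62.6% of probes per channel were. Probes of a gene were averaged, the 4 arrays entered 1 limma fit (2 residual degrees of freedom, prior 4.67), and p-values were adjusted over 21371 genes by Benjamini-Hochberg. Levels were scaled between arrays with Aquantile. The RefSeq table named 10835 of the 16321 probes that carry such an accession. The steps were tested on simulated data.

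The members, the lists and the tests were chosen with earlier results of these data known. Named were all members, every listed gene that passed in a comparison, per list and comparison the gene with the largest difference among those with a probe above background in each channel, and the 5 genes most like Cyp26b1. The number of arrays limits the precision, and p-values measure only the spread between these arrays. Alternatives covered background, offset, normalization, source of the values, filter, prior, arrays in the fit, pairing and each array left out. The regression on location was fitted with locfit 1.5.9.12. The rn4 annotation, the probes' sequences and a genome of the mouse were not used here. 1 gene of the retinoid lists is not reported here, and the counts leave it out.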

Additional observations from a re-analysis of the deposited data

How the results depend on the processing

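Cyp26b1 was chosen by its values against AA-CJ, so in both comparisons with AA-CJ signs are not counted and ranges are a description. In CC-CJ versus CC signs are not counted either, since its arrays may have carried the CC-CJ samples that entered the choice. Several alternatives cannot change the difference itself. The range of Cyp26b1 was -2.50 to -0.93 in CC-CJ versus AA-CJ, -1.63 to -0.16 in CC-CJ versus CC and -0.87 to -0.50 in CC versus AA-CJ. Its mean levels without scaling between arrays were 12.84 (CC), 12.49 (CC-CJ) and 13.53 (AA-CJ). Centring the arrays on their medians, with no loess, moved the median of all genes to -0.48 in CC-CJ versus AA-CJ and -0.59 in CC-CJ versus CC and called 13235 and 14340 genes (776 in CC versus AA-CJ). Cyp26b1 was then -2.50 and -1.63 (the second with adjusted p = 9.38e-05 from limma), which is -2.01 and -1.05 relative to that median. Counts of other members called became 4 and 4, and of further retinoid genes 25 and 24. Centring reversed Aldh1a1 (-1.36), Crabp2 (-1.22), Rarb (-0.022), Nr2f1 (-0.50) and Ep300 (-0.40) in CC-CJ versus AA-CJ; relative to the median these were -0.88, -0.74, 0.46, -0.014 and 0.085. In CC-CJ versus CC it reversed Aldh1a1 (-1.35), Rara (0.056), Rarb (-0.077), Rbp4 (-1.11), Ttr (-0.90), Ep300 (-0.39) and Rarres2 (-0.62), and in CC versus AA-CJ Aldh1a1 (-0.012), Crabp1 (0.018) and Rarb (0.055). The authors' processed table reversed Rara in CC-CJ versus AA-CJ (0.011) and CC-CJ versus CC (0.053) and Rarb in CC versus AA-CJ (0.12). In CC versus AA-CJ, Agilent's log ratio reversed Rara (0.044) and Rarb (0.069), no background subtraction Rarb (0.011) and no filter Rarb (0.066). The cause was not tested for any of these. None of the values reversed under these settings other than centring belongs to a difference that passed.

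With 1 array left out, the reversed values ran from -0.089 to 0.58 for Crabp2 in CC-CJ versus AA-CJ. In CC-CJ versus CC they ran from -0.085 to 0.25 for Aldh1a1, -0.12 to 0.021 for Crabp1, -0.26 to 0.11 for Crabp2 and -0.17 to 0.18 for Rbp4. In CC versus AA-CJ they ran from -0.11 to 0.030 for Crabp1, -0.011 to 0.66 for Crabp2, -0.050 to 0.018 for Rara and -0.27 to 0.17 for Rarb. Other members called stayed at 0 without any 1 array. Further retinoid genes called, 1 in CC-CJ versus AA-CJ, ranged from 0 to 3 (0 without either AA-CJ array, 3 without either CC array), those in CC-CJ versus CC from 1 to 2 and those in CC versus AA-CJ from 1 to 2.

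The same count in CC-CJ versus AA-CJ was 3 with regression on intensity and location, 3 with the authors' processed table, 2 with a prior that follows intensity and 3 with only the arrays of the comparison. In CC-CJ versus CC it was 0 with only probes above background throughout, which drops Rxrg, and 2 with only the arrays of the comparison, where the second gene, as without either AA-CJ array, is the probe named Ttr, which is not read as Ttr. In CC versus AA-CJ it was 2 with Agilent's log ratio, 0 without a filter and 0 with only probes above background throughout. The titles number the arrays 1 and 2 in both comparisons, but deviations of equal numbers correlated at -0.125, so the numbers were not taken to pair the samples. A replicate block cannot change the differences in this balanced design, so those of Cyp26b1 (-1.03, -0.35 and -0.68) are the same by construction. With it, 0 other members and 0, 1 and 1 further retinoid genes passed, and it called 164, 296 and 286 of all genes. The crossed block, chosen after seeing the data, called 1464, 840 and 825 and, of the further genes, 3, 1 and 1. Over all genes, calls in CC-CJ versus AA-CJ numbered 645, with 336 at an offset of 16, 78 with Agilent's log ratio and 1101 with regression on location, 108 without its first array and 1116 without either CC array or with only its own arrays. In CC-CJ versus CC they numbered 502, with 275 from Agilent's log ratio, 290 with probes above background throughout and 204 without its second array. In CC versus AA-CJ they numbered 567, with 248 from Agilent's log ratio, 348 with probes above background throughout and 349 without the second CC array. No fit on only its own arrays was possible for CC versus AA-CJ, and Rara and Rxrg give no value with only probes above background throughout. Signal over background limits what the dim probes of Rara, Crabp1, Rarb and Rxrg can show.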
